A study of Mus musculus with 18 samples.

Results

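The noncoding snoRNA host genes described here are a listed set of 7, Gas5, Snhg1, Snhg3, Snhg5, Snhg6, Snhg8 and Snhg12. They were looked up by their Ensembl identifiers in deposited tables on mouse acute myeloid leukemia (AML), of 12679 genes (p53WT AML at 10 h), 12861 genes (p53null AML, also at 10 h) and 12838 genes (p53WT AML at 72 h). Gas5 (ENSMUSG00000053332) and Snhg12 (ENSMUSG00000086290) had a row in all 3 tables, so 2 of the 7 members could be measured. Snhg1, Snhg3, Snhg5, Snhg6 and Snhg8 had no row in any of the 3 tables under the identifier that the reference gene table gives them. The identifiers of Snhg1, Snhg5, Snhg6 and Snhg8 are numbered above the highest identifier in any of the tables, whereas that of Snhg3 is not. Whether these 5 genes stood in the authors' annotation under another identifier, or fell below the authors' level filter, was not determined, and they are not analysed here.

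Noncoding snoRNA host genes are transcribed into long RNAs whose introns carry small nucleolar RNAs (snoRNAs). After splicing, the introns are processed into snoRNAs, which guide 2′-O-methylation (box C/D class) or pseudouridylation (box H/ACA class) of ribosomal RNA and other RNAs. The spliced exons of several hosts, with Gas5 as the classic case, begin with a 5′ terminal oligopyrimidine (TOP) tract like ribosomal protein mRNAs, carry no long open reading frame and are degraded by nonsense-mediated decay when they are translated. Gas5 was first found as a transcript that accumulates in growth-arrested mouse cells. The products of these genes therefore lie beside the RNA polymerase I pathway that CX-5461 inhibits.

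RNA sequencing was done on 18 samples, 6 groups of 3. All groups carried MLL/ENL Nras leukemia cells transplanted into C57BL/6 mice, and GFP-positive cells were sorted from their bone marrow. The mice with p53null AML received CX-5461 or its vehicle over 10 h before sacrifice, and those with p53WT AML over 10 h or 72 h. The sample titles carry 1 code for the p53WT cells of the 10 h groups and another for the p53null cells, so genotype and leukemia cannot be told apart. The titles of the 72 h groups carry neither code. Library depth was between 21578685 and 48118513 counts in the 6 libraries of p53WT AML at 10 h, the only groups whose counts were used here. The labels do not say that the samples came from separate animals, so p-values measure the spread between these samples, which may be technical.

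The labels and the purity of the sort were checked on marker genes. Cdkn1a, a p53 target that inhibits the cell cycle, averaged 247 ± 15.0 CPM (counts scaled to the library total after TMM normalization) with CX-5461 and 51.8 ± 3.33 CPM with vehicle in p53WT AML at 10 h (SD, n = 3 each). Its log2 fold change was 2.25 (adjusted p = 8.19e-05 by edgeR's quasi-likelihood test). Its log2 fold change was -0.03 (authors' FDR = 1) for p53null AML in the authors' deposited table. All 10 MLL leukemia cell markers had rows, and their summed level was between 19009 and 19216 CPM with CX-5461, against 14329 to 18336 CPM with vehicle. Mpo alone averaged 7776 CPM with CX-5461 and 6435 CPM with vehicle. Of the 10, 9 had positive log2 fold changes and 0 were called higher. Ptprc was called lower (-0.41, adjusted p = 0.0344 by edgeR's quasi-likelihood test). Over all genes that test called 3.78% higher and 4.32% lower. Markers on the lists of other blood cells moved with the treatment. Bulk samples do not show whether leukemia cells or other cells held this RNA. Fewer cells of a type and less RNA per cell cannot be told apart either. Erythroid markers (14 of 16 measured, Ahsp and Epor without a row) summed to 245, 451 and 352 CPM in the 3 CX-5461 libraries, against 5735, 19659 and 633 CPM in the 3 vehicle libraries. Mature neutrophil markers (14 of 14 measured) summed to 4070, 5183 and 3923 CPM with CX-5461, against 11949, 21200 and 8637 CPM with vehicle. Of 6 B cell markers, 2 (Cd79a and Cd79b) had rows and summed to 23.1, 23.7 and 25.5 CPM with CX-5461. With vehicle they summed to 36.3, 70.7 and 22.5 CPM. Of 6 T and NK cell markers, only Cd3d had a row, and the defining T cell gene Cd3e had none. Cd3d had 0.633, 0.872 and 0.596 CPM with CX-5461, against 1.31, 4.90 and 1.07 CPM with vehicle. The part of these marker changes in the results below was not tested. A fit with an erythroid covariate was made, but every CX-5461 library had a lower erythroid sum than every vehicle library. That fit therefore cannot tell erythroid level from treatment.

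The start sites of the hosts are shown because several hosts share the TOP tract with ribosomal protein genes. The sequences are from RefSeq on the GRCm38.p6 build, with 40 bases before the annotated start base and 40 from it onward, and with the uninterrupted run of C or T that holds the start base in capitals. They cover Gas5 at its downstream start (chr1:161035126-161035205, plus strand), Snhg12 (chr4:132308638-132308717, plus strand) and Snhg8 (chr3:123508297-123508376, minus strand).
Gas5: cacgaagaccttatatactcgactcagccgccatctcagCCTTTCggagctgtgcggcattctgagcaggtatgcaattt
Snhg12: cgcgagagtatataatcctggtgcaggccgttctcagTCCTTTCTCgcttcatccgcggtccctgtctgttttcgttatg
Snhg8: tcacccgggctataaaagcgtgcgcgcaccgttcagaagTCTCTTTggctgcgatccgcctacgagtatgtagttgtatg
The runs were 6, 9 and 7 bases long. A run of at least 6 bases, on the strand that reads like the RNA, occurred at 3 of the 7 listed start sites of 6 member genes. It occurred at 7.25% of 32851 promoters in the same RefSeq table. The ribosomal protein genes that host snoRNAs had such a run at 2 of 14 listed start sites, so the measure seldom found a run in the class known for the tract. The upstream start of Gas5 and the starts of Snhg3 and Snhg5 held no such run, and that of Snhg1 held 4 bases. The table held no entry for Snhg6. A match in these windows is a description of the letters and not a mapped tract.

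Gas5, whose introns carry a cluster of box C/D snoRNAs, did not pass the test at 10 h in p53WT AML. Its level was 136, 123 and 124 CPM in the 3 CX-5461 libraries, against 123, 114 and 120 CPM in the 3 vehicle libraries. The lowest CX-5461 library lay just above the highest vehicle library, so the groups did not overlap but were less than 1 CPM apart. The share of all genes that separate in this way is not given, here or for the genes below, so separation is only described. The means were 128 ± 7.34 CPM with CX-5461 and 119 ± 4.43 CPM with vehicle (SD, n = 3 each). The log2 fold change, CX-5461 over vehicle, was 0.10 (SE 0.0580), with a 95% confidence interval of -0.0352 to 0.239 and an adjusted p of 0.275 by edgeR's quasi-likelihood test. These values rest on 5170, 2687 and 2910 counts with CX-5461 and on 5911, 3033 and 2681 counts with vehicle.

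Snhg12, host of box H/ACA snoRNAs and of the box C/D snoRNA Snord99, was 1.24-fold as high with CX-5461 as with vehicle and lay just outside the threshold. It had 18.3, 16.3 and 16.6 CPM in the 3 CX-5461 libraries, against 14.0, 13.9 and 13.3 CPM in the 3 vehicle libraries. Every CX-5461 library was above every vehicle library. The same held for uncalled genes such as Hoxa10 (log2 fold change 0.08, adjusted p = 0.312 by edgeR's quasi-likelihood test). The means were 17.1 ± 1.11 CPM with CX-5461 and 13.7 ± 0.346 CPM with vehicle (SD, n = 3 each). The log2 fold change was 0.32 (SE 0.0801, 95% confidence interval 0.126 to 0.504), with an unadjusted p of 0.00555 and an adjusted p of 0.0547 by edgeR's quasi-likelihood test. The counts behind it were 696, 355 and 390 with CX-5461 and 670, 369 and 298 with vehicle.

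Neither Gas5 nor Snhg12 was therefore called by edgeR's quasi-likelihood test at an adjusted p under 0.05, and 1 of them, Snhg12, had an unadjusted p under 0.05, as 3979 of all 12679 genes did. Among all 12679 genes this test called 8.1%, with 3.78% higher and 4.32% lower. Snhg12 crossed the threshold with DESeq2 (adjusted p = 0.0376) and once genes averaging under 5 CPM were removed (adjusted p = 0.0499), and it did not with limma-voom (adjusted p = 0.0562) or edgeR's exact test (adjusted p = 0.101). Its adjusted p lay between 0.0376 and 0.482 over 14 alternative fits, the highest of them in the fit with an erythroid covariate. Across the 6 libraries the log2 CPM values of Gas5 and Snhg12 had a Pearson r of 0.82, a description over libraries that share the treatment contrast.

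**Figure D1:**
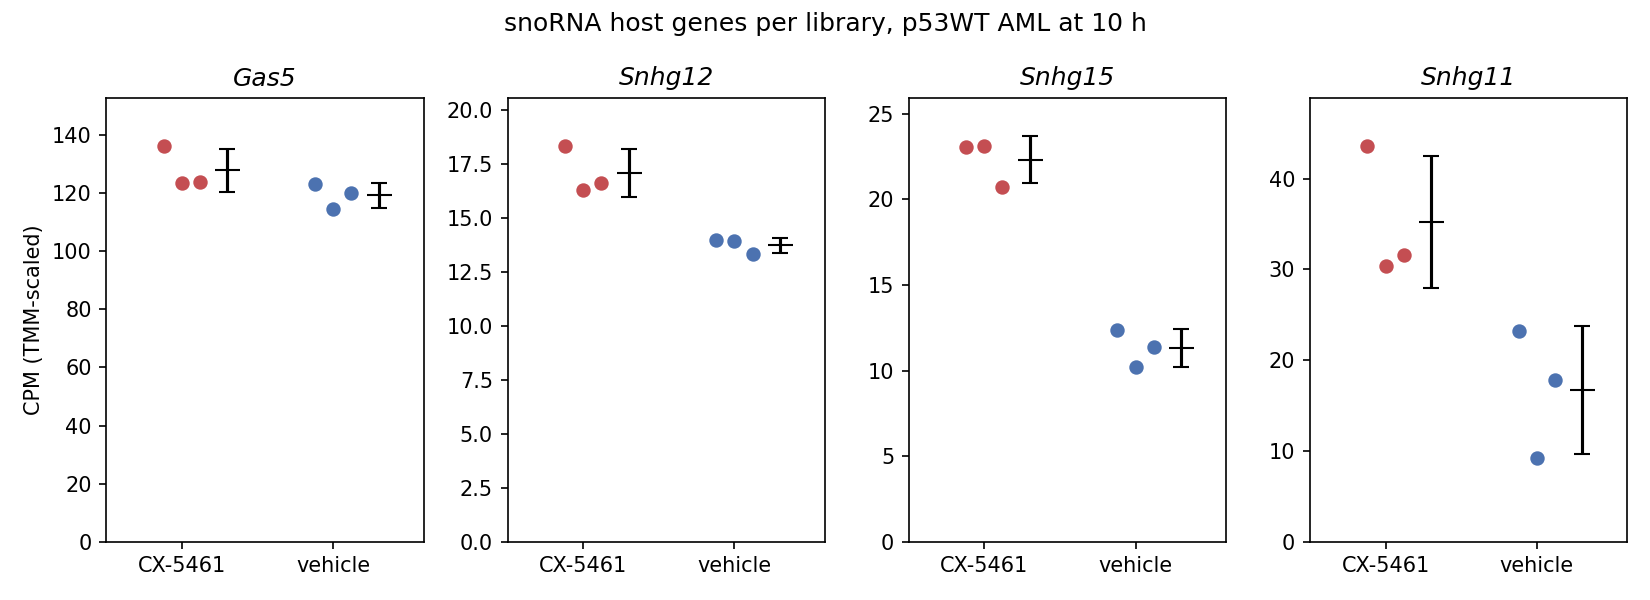
Level of 4 noncoding snoRNA host genes in TMM-scaled CPM (vertical axes, each from 0) in the 3 CX-5461 and the 3 vehicle libraries of p53WT AML at 10 h; points are libraries, and the bar beside them is the mean ± SD. Gas5 differs by 128 against 119 CPM and Snhg12 by 17.1 against 13.7 CPM, while Snhg15 differs by 22.3 against 11.3 CPM and Snhg11 by 35.2 against 16.8 CPM.

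In p53null AML after 10 h and in p53WT AML after 72 h, neither measured member passed the authors' FDR of 0.05. Their log2 fold changes lay between -0.18 and 0.06, and both were negative at 72 h. For p53null AML at 10 h, the authors' deposited table gave Gas5 a log2 fold change of 0.06 (authors' FDR = 1) and Snhg12 one of -0.12 (authors' FDR = 1). In that table the authors called 0.187% of the genes, with 0.148% higher and 0.0389% lower. For p53WT AML at 72 h, in the authors' deposited table, Gas5 had a log2 fold change of -0.18 (authors' FDR = 0.0974) and Snhg12 one of -0.15 (authors' FDR = 0.376). The authors called 31.2% of the genes there, with 16.1% higher and 15.1% lower, and 0 of 2 members called is a count too small to set against that share. Gas5 at 72 h had an authors' unadjusted p of 0.0363 and would be called lower at an FDR of 0.1. The same deposited tables gave Gas5 a log2 fold change of 0.10 (authors' FDR = 0.746) and Snhg12 one of 0.32 (authors' FDR = 0.156) in p53WT AML at 10 h. The differences between the 3 comparisons were not tested, because counts were at hand for 1 of them.

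**Figure D2:**
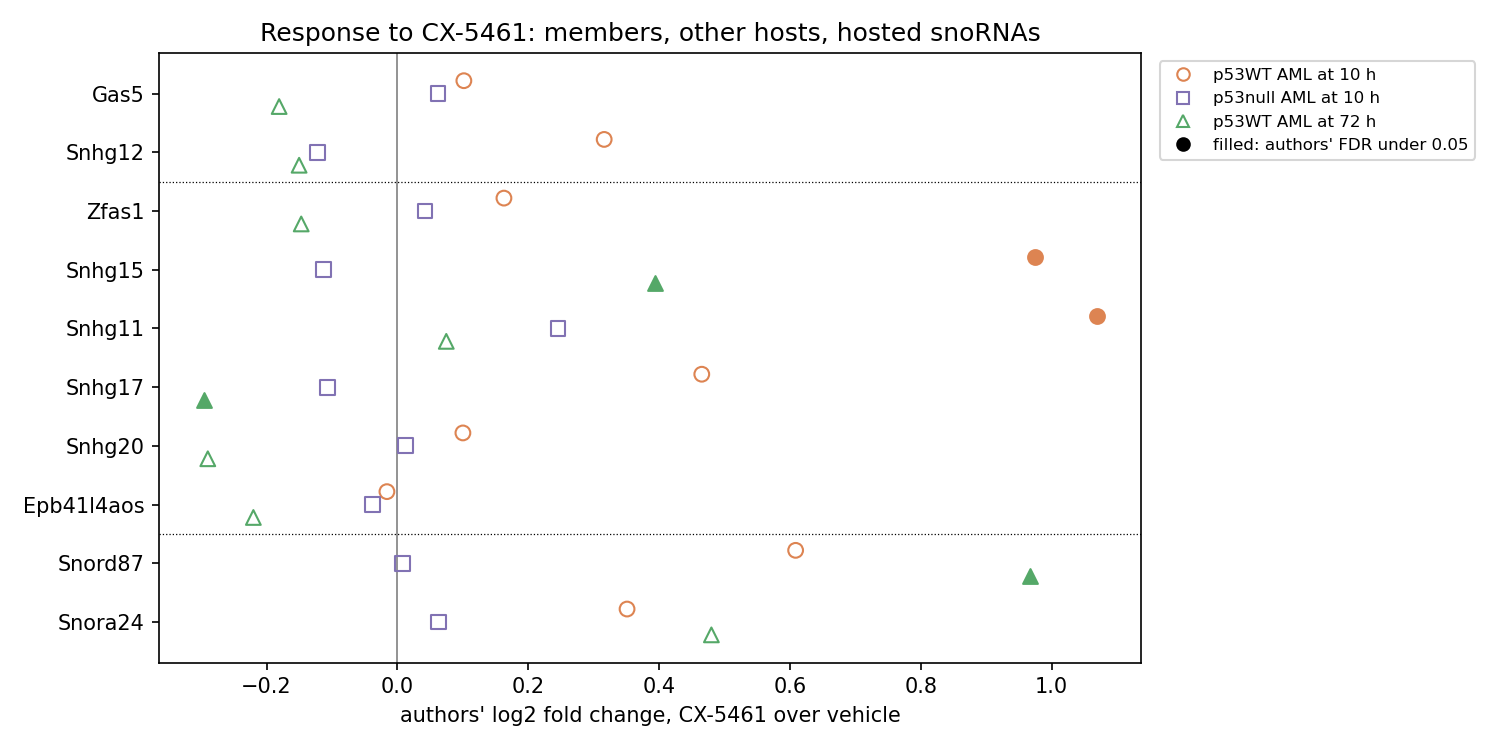
The authors' log2 fold change, CX-5461 over vehicle (horizontal axis), of the 2 measured members, 6 other noncoding hosts and 2 hosted snoRNAs in the 3 deposited tables, with filled symbols for an authors' FDR under 0.05. Gas5 and Snhg12 carry open symbols in all 3 tables, and Snhg15 is filled at 10 h and at 72 h in p53WT AML.

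The libraries were made with a TruSeq RNA v2 kit, which selects polyadenylated RNA, and mature snoRNAs carry no poly(A) tail. The reference annotation places 10 snoRNA genes within Gas5, 8 within Snhg1, 5 within Snhg12, 2 each within Snhg3 and Snhg5, and 1 each within Snhg6 and Snhg8. These are counts of identifiers. Snord80 in Gas5 and Snora16a in Snhg12 each have more than 1 identifier, and the 10 of Gas5 include Mir5117. Snord87 of Snhg6 and Snora24 of Snhg8 had rows in all 3 tables, and Snora16a of Snhg12 had a row for p53null AML alone. Snhg6 and Snhg8 have no row of their own. The sequences of the snoRNAs with rows in all 3 tables, from the GENCODE M21 transcripts on GRCm38, are shown because these were the hosted snoRNAs measured throughout. They are Snord87 (chr1:9942463-9942549, minus strand), with the C box TGATGA and the D box CTGA in capitals, and Snora24 (chr3:123507937-123508066, minus strand), with the ACA box near the 3′ end in capitals.
Snord87: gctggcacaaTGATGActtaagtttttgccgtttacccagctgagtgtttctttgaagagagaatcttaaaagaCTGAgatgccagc
Snora24: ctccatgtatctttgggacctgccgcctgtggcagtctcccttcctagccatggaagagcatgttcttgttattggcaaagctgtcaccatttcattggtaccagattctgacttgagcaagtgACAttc
Snord87 is annotated in an intron of Snhg6, and Snora24 overlaps an exon of a Snhg8 isoform. Reads of the unspliced or spliced host that cover these positions cannot be told apart from the snoRNA.

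Snord87, a box C/D snoRNA, had 1.40, 1.42 and 1.11 CPM in the CX-5461 libraries of p53WT AML at 10 h, against 1.02, 0.754 and 0.716 CPM in the vehicle libraries. The groups did not overlap, on counts of 53, 31 and 26 with CX-5461 and of 49, 20 and 16 with vehicle. Its log2 fold change was 0.62 (SE 0.222), with an adjusted p of 0.111 by edgeR's quasi-likelihood test. All 3 CX-5461 libraries and 1 vehicle library exceeded 1 CPM before TMM scaling, and all 12679 genes of the table exceeded that level in at least 3 libraries, so its row depended on the group where it was high. In the authors' deposited tables the log2 fold change of Snord87 was 0.01 (authors' FDR = 1) in p53null AML at 10 h and 0.97 (authors' FDR = 0.00179) in p53WT AML at 72 h. The authors' mean at 72 h was 1.14 CPM, again close to 1 CPM, and without counts it was not determined whether the row at 72 h also depended on the group where Snord87 was high.

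Snora24, a box H/ACA snoRNA, had 1.21, 1.74 and 0.936 CPM in the CX-5461 libraries, against 0.9998, 0.792 and 1.25 CPM in the vehicle libraries, and the groups overlapped. Its log2 fold change was 0.35 (SE 0.285), with an adjusted p of 0.431 by edgeR's quasi-likelihood test. Before TMM scaling, 2 CX-5461 libraries and 1 vehicle library exceeded 1 CPM. All genes of the table exceeded that level in at least 3 libraries, so this row too depended on the group where Snora24 was higher. The authors' deposited tables gave 0.06 (authors' FDR = 1) in p53null AML at 10 h and 0.48 (authors' FDR = 0.175) in p53WT AML at 72 h. Snora16a had a log2 fold change of 0.07 (authors' FDR = 1) for p53null AML in the authors' deposited table.

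Of all annotated snoRNA genes with a row, 18 were measured in p53WT AML at 10 h and 1 was called higher by edgeR's quasi-likelihood test. Over all genes that test called 3.78% higher, so 1 call in 18 rows lies near the background. All 18 had positive log2 fold changes with a median of 0.42, against a median of 0.00 over all genes. For 7 of the 18, more CX-5461 than vehicle libraries exceeded 1 CPM. The 9 rows in which all 3 vehicle libraries exceeded 1 CPM had positive values, with a median of 0.47. The bearing of the level filter on the snoRNA values was not tested. For p53null AML at 10 h, in the authors' deposited table, 17 of 26 snoRNA rows were positive with a median of 0.08, and 0 were called by the authors' edgeR test (2 had an authors' unadjusted p under 0.05). In their table for p53WT AML at 72 h, 8 of 12 were positive with a median of 0.09, and 3 were called higher. Of all genes 16.1% were called higher there, and 12 rows are too few to set against that share.

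Among other noncoding hosts Snhg15 rose in p53WT AML at 10 h. Of 15 such genes listed, 6 had rows in all 3 tables, namely Zfas1, Snhg11, Snhg15, Snhg17, Snhg20 and Epb41l4aos. Their median log2 fold change in p53WT AML at 10 h was 0.31, and 1 was called higher and 0 lower by edgeR's quasi-likelihood test. That test called 3.78% of all genes higher and 4.32% lower, and 6 hosts are too few to set against those shares. Snhg15 had 23.0, 23.1 and 20.7 CPM with CX-5461, against 12.4, 10.2 and 11.4 CPM with vehicle. All CX-5461 libraries stood well above all vehicle libraries. Snhg15 rose by a log2 fold change of 0.98 (SE 0.0982, adjusted p = 0.00995 by edgeR's quasi-likelihood test). That call was lost when CX-5461 library 1, 2 or 3 was left out (adjusted p = 0.0907, 0.0930 and 0.0502) and in the fit with an erythroid covariate (adjusted p = 0.331), although its log2 fold change stayed between 0.84 and 1.05 over 14 alternative fits (adjusted p 7.94e-12 to 0.331). Leaving out CX-5461 library 1, 2 or 3 also took the calls over all genes to 25, 23 and 23, against 1027 with all libraries, and the covariate took them to 19.

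Snhg11, whose RNA is best known from neurons, varied more among libraries. It had 43.6, 30.4 and 31.6 CPM with CX-5461, against 23.2, 9.24 and 17.8 CPM with vehicle. The groups did not overlap. Its log2 fold change was 1.07 (SE 0.316), with an adjusted p of 0.0740 by edgeR's quasi-likelihood test and of 0.00248 with DESeq2 (0.00248 to 0.840 over 14 alternative fits). It passed without vehicle library 1 (adjusted p = 0.0424) or vehicle library 2 (adjusted p = 0.0463). In the authors' deposited table for p53WT AML at 10 h, Snhg11 (authors' FDR = 0.00173) and Snhg15 (authors' FDR = 6.5e-09) were both called, in a table where 10.4% of genes were called, with 3.57% higher and 6.83% lower.

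Snhg17 had 29.5, 24.6 and 23.3 CPM with CX-5461, against 20.6, 13.8 and 21.8 CPM with vehicle (log2 fold change 0.47, adjusted p = 0.131 by edgeR's quasi-likelihood test). Zfas1, a host of box C/D snoRNAs antisense to Znfx1, had 26.0, 28.9 and 26.9 CPM with CX-5461, against 24.2, 26.5 and 22.2 CPM with vehicle (log2 fold change 0.16, adjusted p = 0.237 by the same edgeR test). The remaining 2, Snhg20 and Epb41l4aos, had log2 fold changes of 0.10 and -0.02. Because the kit does not mark strand, reads of Zfas1 and of its antisense partner cannot be told apart where they overlap.

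For p53null AML at 10 h, in the authors' deposited table, 0 of these 6 hosts were called by the authors' edgeR test, 0 had an unadjusted p under 0.05, and their median log2 fold change was -0.01. Snhg15 had -0.11 there and Snhg11 had 0.25, at a mean of 2.88 CPM. In the authors' deposited table for p53WT AML at 72 h, Snhg15 was higher with CX-5461 (log2 fold change 0.39, authors' FDR = 0.00541) and Snhg17 was lower (-0.30, authors' FDR = 0.0331). Snhg11 had 0.07 and Zfas1 had -0.15 at that time. At 72 h the authors' deposited table also had 9 of 15 erythroid, 13 of 14 neutrophil, 2 of 3 B cell and 1 of 1 T and NK cell markers called higher with CX-5461. Of the 10 MLL leukemia cell markers, 5 were called lower and 1 higher in that table, with a median log2 fold change of -0.20. Of all genes it called 16.1% higher and 15.1% lower. Which cells held the RNA of these markers was not tested, nor was its part in the values at 72 h.

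Coding genes that carry snoRNAs in their introns were described in 2 lists, ribosomal protein genes and others. Among 23 ribosomal protein genes that host snoRNAs, 0 were called by edgeR's quasi-likelihood test and 3 had an unadjusted p under 0.05, with a median log2 fold change of 0.05 and values from -0.00157 to 0.25. Ribosomal protein genes have many processed pseudogenes, so the authors' counting could split their reads. Among 20 other coding hosts, 9 were called higher and 0 lower, with a median of 0.28. Over all 12679 genes the same test called 3.78% higher and 4.32% lower, and 3979 had an unadjusted p under 0.05. Hspa8, a constitutive heat shock chaperone, averaged 2704 ± 88.7 CPM with CX-5461 and 1823 ± 292 CPM with vehicle (log2 fold change 0.57, adjusted p = 0.0387 by edgeR's quasi-likelihood test). Wdr43, a factor of early ribosomal RNA processing, averaged 152 ± 9.27 CPM with CX-5461 and 111 ± 10.2 CPM with vehicle (0.46, adjusted p = 0.0338 by the same edgeR test). Cct6a, a subunit of the CCT chaperonin, averaged 287 ± 8.40 CPM with CX-5461 and 233 ± 16.1 CPM with vehicle (0.30, adjusted p = 0.0398 by the same edgeR test).

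Proteins that bind or assemble snoRNAs had positive values beside these hosts. Of 20 such genes, 7 were called higher and 0 lower, with a median log2 fold change of 0.31 and 19 positive values. The shares over all genes were 3.78% higher and 4.32% lower. The snoRNP list shares Nop58, Nop56 and Dkc1 with the coding hosts, and Nop58 and Nop56 are called in both. Nop58, a core box C/D protein, averaged 225 ± 14.3 CPM with CX-5461 and 163 ± 15.3 CPM with vehicle (0.46, adjusted p = 0.0338 by edgeR's quasi-likelihood test). Nop10, a core box H/ACA protein, averaged 76.5 ± 2.31 CPM with CX-5461 and 61.4 ± 2.90 CPM with vehicle (0.31, adjusted p = 0.0338 by the same edgeR test). Rrp9, which binds the U3 snoRNA, averaged 51.8 ± 2.31 CPM with CX-5461 and 36.7 ± 4.09 CPM with vehicle (0.50, adjusted p = 0.0344 by the same edgeR test). Nolc1, a chaperone of snoRNPs, averaged 257 ± 5.42 CPM with CX-5461 and 190 ± 25.5 CPM with vehicle (0.44, adjusted p = 0.0427 by the same edgeR test). The counts of both lists were 0 when CX-5461 library 1, 2 or 3 was left out or an erythroid covariate was fitted. Hspa8 also missed the threshold without vehicle library 1 (adjusted p = 0.0510) and Nolc1 without vehicle library 3 (adjusted p = 0.0574). The snoRNP count was 13 with DESeq2, 4 with limma-voom, 11 without vehicle library 1 and 4 without vehicle library 3. The calls over all genes in those fits numbered 2314 with DESeq2, 724 with limma-voom, 1678 without vehicle library 1 and 1314 without vehicle library 3.

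In p53null AML at 10 h the authors' deposited table called 0 genes of these 3 lists, where 0 also had an authors' unadjusted p under 0.05 in the authors' edgeR test, and the medians were between -0.02 and -0.01. Of all 12861 genes that table called 0.187%, and 781 had an unadjusted p under 0.05 in the same test. In p53WT AML at 72 h the authors' deposited table called 4 ribosomal protein hosts lower and 0 higher (median -0.12), 2 of the other coding hosts higher and 2 lower (median -0.01), and 4 snoRNP genes lower and 0 higher (median -0.10). Over all genes that table called 16.1% higher and 15.1% lower, and the 3 lists have 23, 20 and 20 genes, so these counts lie near or below the background. Nop10 was among the lower ones (-0.26, authors' FDR = 0.00578). Nop58 had 0.03 and Wdr43 had -0.02.

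The genes of the decay pathway and the other TOP mRNAs bear on the spliced host RNAs. Of 16 nonsense-mediated decay genes, edgeR's quasi-likelihood test called 2 higher and 0 lower in p53WT AML at 10 h, with a median log2 fold change of 0.05. Over all genes it called 3.78% higher and 4.32% lower. The decay count was 0 without CX-5461 library 1, 2 or 3 and with the erythroid covariate, and 1 with edgeR's exact test and without vehicle library 1. The authors' deposited tables called 0 of the decay genes in p53null AML, where 1 had an unadjusted p under 0.05 in the authors' edgeR test. For p53WT AML at 72 h they called 5 higher and 1 lower, with a median of 0.16. Over all genes the 72 h shares were 16.1% higher and 15.1% lower. Of 17 TOP mRNAs outside the ribosomal proteins, 1 was called higher and 0 lower in p53WT AML at 10 h, with a median of 0.03. A count of 1 in 17 lies near the 3.78% over all genes. Rack1, Eef1b2, Eef2 and Tpt1 of this list are also among the other coding hosts, and none of them was called. The higher count was 0 in the fits that took the decay count to 0 and without vehicle library 3, 2 without vehicle library 1, and 4 with DESeq2. At 72 h the authors' deposited table called 0 of these 17 higher and 2 lower, with a median of -0.09.

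**Figure D3:**
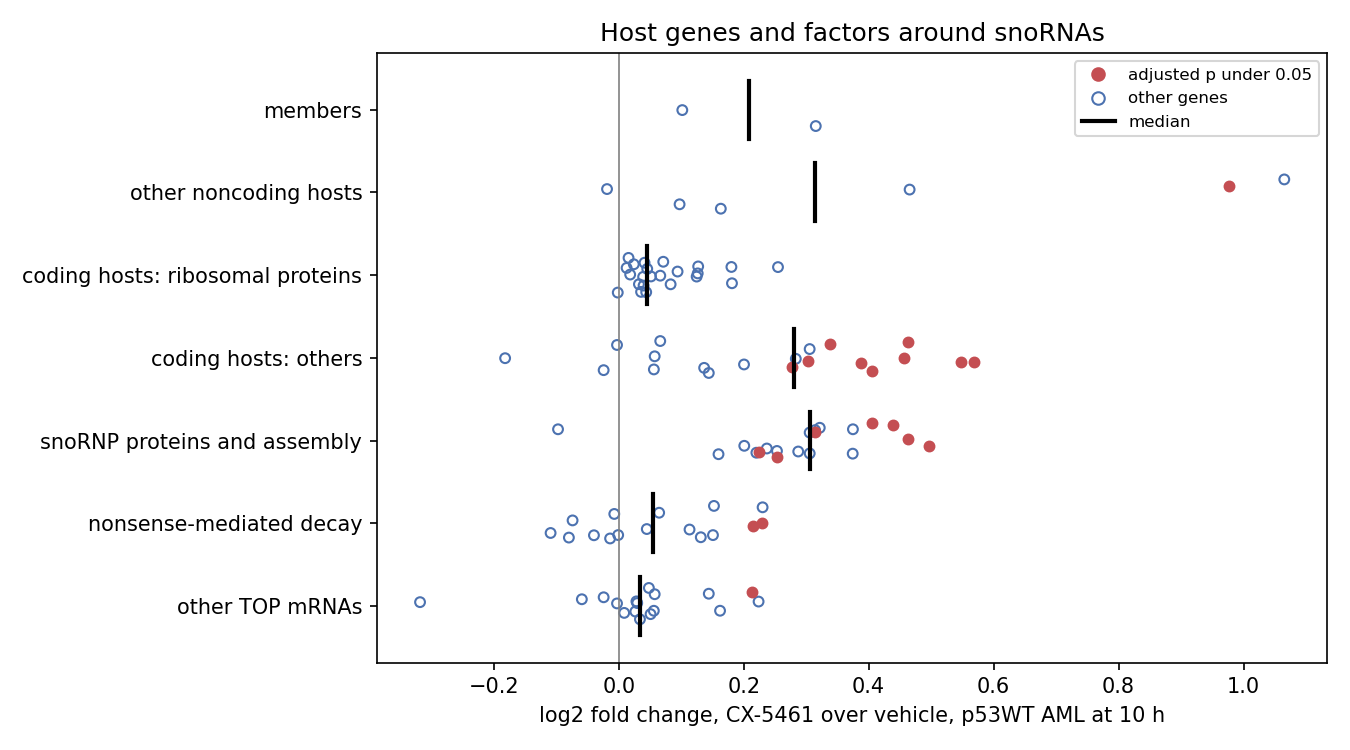
Log2 fold change, CX-5461 over vehicle, in p53WT AML at 10 h (horizontal axis) for each measured gene of 7 lists, with filled points for an adjusted p under 0.05 and black bars for list medians. The ribosomal protein hosts lie around a median of 0.05, and the other coding hosts and the snoRNP proteins around medians of 0.28 and 0.31.

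Genes next to the members were read from the reference annotation. Zbtb37, on the opposite strand of Gas5 with an overlapping locus, had a log2 fold change of 0.11 (adjusted p = 0.586 by edgeR's quasi-likelihood test). Trnau1ap, next to Snhg12, had 0.00 (adjusted p = 0.992 by the same edgeR test), whereas Snhg12 had 0.32. Rcc1, which encodes the exchange factor of Ran and shares exons with Snhg3, had 128 ± 4.24 CPM with CX-5461 and 105 ± 11.8 CPM with vehicle (0.27, adjusted p = 0.0753 by the same edgeR test). It passed with DESeq2 (adjusted p = 0.0249) and without vehicle library 1 (adjusted p = 0.0201), in a range of 0.0201 to 0.522 over 14 alternative fits. Reads of Snhg3 could have been counted to Rcc1 where their exons coincide. Syncrip, an RNA-binding protein gene next to Snhg5, rose to 276 ± 7.42 CPM with CX-5461, against 221 ± 16.4 CPM with vehicle (0.32, adjusted p = 0.0372 by the same edgeR test). That call was lost without CX-5461 library 1, 2 or 3 (adjusted p = 0.172, 0.160 and 0.117) and with an erythroid covariate (adjusted p = 0.490, the highest over 14 alternative fits). Its neighbour on the other side of Snhg5, Zfp949, had -0.36 (adjusted p = 0.141 by the same edgeR test). Slc3a2 and Wdr74 flank Snhg1 and had -0.04 and 0.22, Phactr4 lies beyond Snhg3 and had -0.08, and Mcmdc2, whose exons overlap Snhg6 on the other strand, had -0.05. Wdr74 passed without vehicle library 1 (adjusted p = 0.0385) and in no other of 14 alternative fits (up to 0.626). The neighbours Tcf24, Prss12, Ndst3 and Rab42 had no row.

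The genes most like the mean of Gas5 and Snhg12 over the 6 libraries, by Pearson r of log2 CPM, were Pdss1 (0.996), Gm15446 (0.989), Ccdc106 (0.988), Rpl10-ps6 (0.987) and ENSMUSG00000090924 (0.986). Pdss1 encodes a subunit of the enzyme that makes the ubiquinone side chain. It had a log2 fold change of 0.32 (adjusted p = 0.0703 by edgeR's quasi-likelihood test). These values describe 6 libraries that share the treatment contrast, and no test was made.

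The level of both members, averaged by the authors over CX-5461 and vehicle libraries, was higher in the table of p53null AML than in that of p53WT AML at the same time. Gas5 had 222 CPM in p53null AML and 123 CPM in p53WT AML at 10 h in the authors' deposited tables, a log2 difference of 0.85. Snhg12 had 39.1 CPM in p53null AML and 15.4 CPM in p53WT AML at 10 h in the authors' deposited tables, a log2 difference of 1.34. Over 11879 genes in both tables the median difference was -0.07 with quartiles of -0.37 and 0.23, and 8.65% of these genes were at least as high as Gas5 and 5.08% at least as high as Snhg12. Zfas1 had the highest difference of the other noncoding hosts, at 1.45, and Snhg17 had 0.71. Snhg15 had -0.04 and Snhg11 had -3.17, so the hosts did not share 1 direction. Trp53 itself averaged 61.5 CPM in p53null AML and 169 CPM in p53WT AML at 10 h in the authors' deposited tables.

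These levels come from tables that the authors normalized separately, from leukemias with different codes in the titles, and they were not tested. The pseudogene Rpl10-ps6 averaged 529 CPM in p53null AML, 13.4 CPM in p53WT AML at 10 h and 372 CPM in p53WT AML at 72 h in the authors' deposited tables, and the bearing of such differences on the hosts was not tested. The 6 erythroid markers measured in both tables had a median log2 difference of -5.01 between p53null AML and p53WT AML at 10 h. The 10 MLL leukemia cell markers had a median of -1.48 (quartiles -1.85 and -0.71) and the 14 mature neutrophil markers one of 0.57. Within p53WT AML the 72 h table had lower levels than the 10 h table, with log2 differences of -0.28 for Gas5 and -0.41 for Snhg12, against a median of -0.07 over all 12277 shared genes. Of these shared genes, 84.8% were at least as high as Gas5 and 91.3% at least as high as Snhg12. All 6 other noncoding hosts also had negative values there, with a median of -0.30. The quartiles over all shared genes were -0.20 and 0.04, so negative values were common. The titles do not say whether the same leukemia was used at 10 h and 72 h, so time and leukemia cannot be told apart here.

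**Figure D4:**
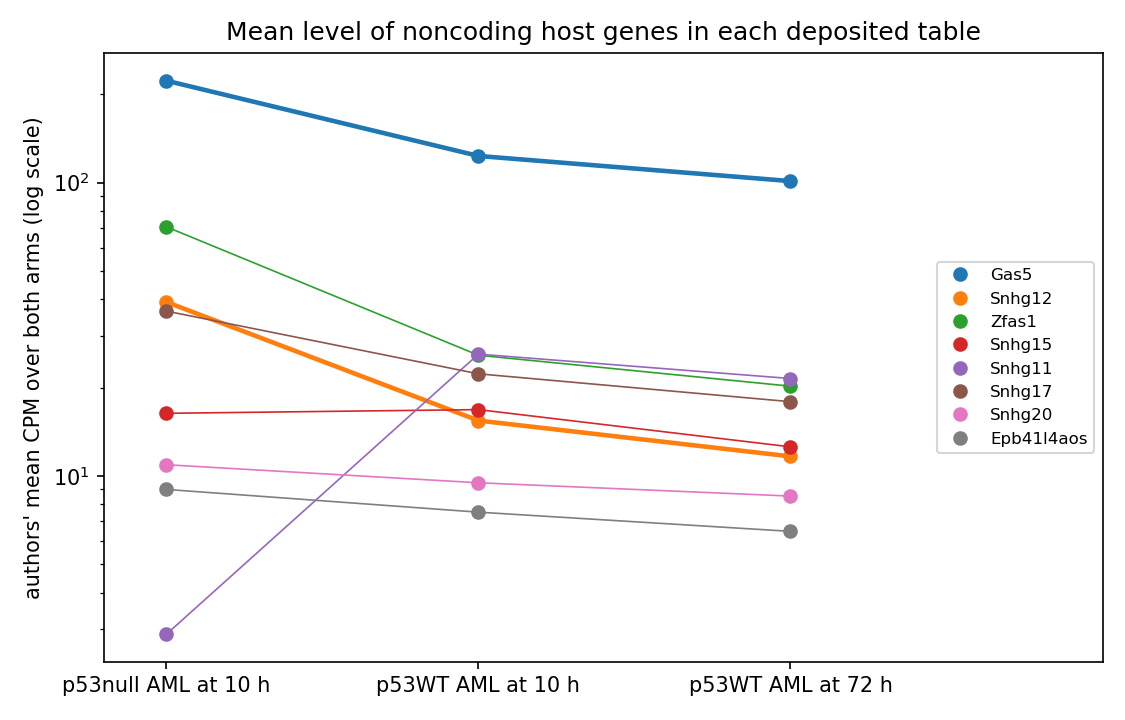
Mean CPM over CX-5461 and vehicle libraries from the authors' deposited tables (vertical axis, log scale) for 8 noncoding hosts in p53null AML at 10 h and in p53WT AML at 10 h and 72 h; points are the authors' means, lines join 1 gene, and the tables were normalized separately. Gas5 lies at 222, 123 and 101 CPM and Snhg12 at 39.1, 15.4 and 11.6 CPM; CPM is not scaled by length, so heights of different genes are not comparable.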

How the data were processed

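RNA was sequenced from sorted leukemia cells in 18 samples. The submitters' processing notes name the mm9 build, HTSeq, edgeR, Bowtie and CASAVA 1.8.2; settings and annotation are not given in the sources used here. The 3 deposited tables hold, per the file headers, the authors' edgeR log2 fold change, log2 mean CPM, p-value and false discovery rate (FDR). Only that of p53WT AML at 10 h adds the authors' deposited raw counts per gene for 6 libraries. The other tables hold no counts here, so the planned fits were replaced by the authors' values, with no SD or SE. Count columns name the arm and a number that does not match the sample titles, so each was assigned to its group only. Columns are called libraries 1 to 3 of their arm.

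The counts were normalized by TMM and tested over all 12679 genes in R 4.3.3 with edgeR 4.0.16, by its two-sided quasi-likelihood test (Benjamini-Hochberg adjusted p under 0.05), after the script was tested on simulated data. CPM values per group are means ± SD over 3 libraries. Fold changes are CX-5461 over vehicle; the authors' sign was checked against the counts (r = 1.00 across genes) and taken as the same in the other tables. Alternatives were RLE size factors, library totals, a mean of at least 5 CPM, a robust fit, an erythroid covariate, DESeq2 1.42.0, limma-voom (limma 3.58.1), edgeR's exact test, leaving out each library and an FDR of 0.1.

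Symbols were paired with 12237, 12366 and 12362 identifiers (p53WT 10 h, p53null 10 h, p53WT 72 h). Start sites are from RefSeq and snoRNAs from GENCODE M21, both on GRCm38 and not on the authors' build. The kit does not mark strand. The genes named were the 7 members, their neighbours and hosted snoRNAs, up to 4 called genes of each of 3 lists by smallest p, the 5 genes most correlated with the members, Trp53 and Cdkn1a; some items under this rule are not reported here. The other noncoding hosts are described as a whole list, so those that did not pass were named after their values were seen. The members and lists were chosen with earlier results of these data known.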

Additional observations from a re-analysis of the deposited data

How the results depend on the processing

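Neither Gas5 nor Snhg12 was called in p53WT AML at 10 h under RLE size factors, library totals, the robust fit, the erythroid covariate, limma-voom, edgeR's exact test or with any library left out. The number of members called higher was 1 (Snhg12) once genes averaging under 5 CPM were removed, with DESeq2 and at an FDR of 0.1, and the number called lower at 72 h by the authors' values was 1 (Gas5) at an FDR of 0.1. The log2 fold change over 14 alternative fits was 0.0395 to 0.14 for Gas5 and 0.26 to 0.37 for Snhg12, positive in every one. With the erythroid covariate the sign turned for Snora24 (-0.32), Snhg17 (-0.10), Snhg20 (-0.55) and Epb41l4aos (0.0664). Without vehicle library 2 it turned for Snhg20 (-0.0456) and Epb41l4aos (0.0458), and Epb41l4aos also turned with library totals (0.0235), with limma-voom (0.00110) and without CX-5461 library 1 (0.0117). Over all fits that left out 1 library, Snhg20 lay between -0.0456 and 0.31 and Epb41l4aos between -0.0936 and 0.0458. Among the neighbours, the covariate turned Zbtb37 (-0.18), Slc3a2 (0.30), Phactr4 (0.0669), Zfp949 (0.0994) and Mcmdc2 (0.24), and library totals turned Slc3a2 (0.00239). Trnau1ap, near 0 throughout, turned with RLE size factors (-0.00376), the removal of low genes (-0.00306), DESeq2 (-0.00461) and limma-voom (-0.00190). With 1 library left out, Slc3a2 lay between -0.13 and 0.0606, Mcmdc2 between -0.13 and 0.0165 and Trnau1ap between -0.0463 and 0.0431. None of the values that turned passed the test, and the cause was not tested. The erythroid level was lower in every CX-5461 library than in every vehicle library, so the covariate fit cannot tell it from treatment. No paired analysis was possible because the count columns could not be tied to the replicate numbers of the sample titles. Depth limits the snoRNA rows, since Snord87 and Snora24 rest on 16 to 53 counts a library.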
